A study of Homo sapiens with 12 samples.

Results

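The genes described here are 10 regulators of the stress response run by the transcription factors ATF4 and CHOP, out of 36502 genes counted: ATF4, ATF3, DDIT3 (which encodes CHOP), CHAC1, TRIB3, DDIT4, SESN2, PPP1R15A, CEBPB and VLDLR. They were taken from the count table by symbol, and all 10 were found and passed the filter on low counts. They had been picked because of their levels in induced cells of the GFP clone, so those levels are given as a description, without a test.

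RNA was sequenced from HT1080, a human fibrosarcoma cell line, in a study of contacts between the genome and the nuclear lamina. The cells were clones with an inducible m6A-Tracer, a fluorescent protein that binds DNA methylated on adenine, and with Dam-LaminB1, a bacterial adenine methyltransferase fused to lamin B1. The GFP clone carries the plain tracer and the VP16 clone carries the tracer fused to the VP16 activation domain. Each tracer is represented by 1 clone, so tracer and clone cannot be told apart.

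Uninduced cells of either clone (GFP_uninduced and VP16_uninduced) grew for 4 days with doxycycline at 50 ng/ml, which keeps the tracer off. Tracer cells (GFP_tracer and VP16_tracer) had 3 days of doxycycline and then 24 h without it. Cells with tracer and Dam-LaminB1 (GFP_tracer_Dam and VP16_tracer_Dam) were treated in the same way, with Shield1 at 500 nM during the 24 h without doxycycline to stabilise the methyltransferase. All 6 groups had thus been given doxycycline. Loss of the drug cannot be told apart from gain of the tracer, nor Shield1 from Dam-LaminB1. Each group had 2 libraries, 1 in each of 2 sets that reuse the same 6 index sequences, here index set 1 and index set 2. Whether the 2 libraries of a group are separate cultures is not in the labels. A p-value here therefore measures the spread between libraries alone, and that spread may be technical.

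ATF4 is a leucine zipper factor whose mRNA is translated better when eIF2 is phosphorylated by stress-sensing kinases, as happens when amino acids run short or unfolded proteins build up in the endoplasmic reticulum. It switches on genes of amino acid supply and, with its target CHOP, genes of growth arrest, feedback and cell death. Much of this control acts on translation and on protein stability, which mRNA counts do not measure.

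ATF4 binds with C/EBP proteins to a composite element whose core is TGATGNAA, and ATF3 and related factors bind the cyclic AMP response element (CRE) TGACGTCA. Promoters were read from RefSeq on GRCh38.p14, which lists 16 start sites for the 10 genes, and the 250 bases before each start were searched on both strands. The composite core lay before a start of CHAC1 and of ATF3, and in 3.14% of all 35116 windows of this kind. The CRE lay before the start of PPP1R15A and in 1.65% of all windows. These 3 promoters are printed because they hold the elements. Capitals mark the composite core in CHAC1 (read on the opposite strand, 209 to 202 bases before the start) and in ATF3 (191 to 184 bases before). In PPP1R15A they mark the CRE nearest the start (58 to 51 bases before) and 2 upstream matches to TGACNNNGC, a core of the antioxidant response element found in 10.9% of windows.
CHAC1, chr15:40953221-40953470, plus strand: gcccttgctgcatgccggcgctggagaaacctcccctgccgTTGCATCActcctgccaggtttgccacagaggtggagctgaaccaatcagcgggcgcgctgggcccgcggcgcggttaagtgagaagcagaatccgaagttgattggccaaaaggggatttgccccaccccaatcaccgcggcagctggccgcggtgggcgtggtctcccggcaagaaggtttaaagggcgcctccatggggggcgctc
ATF3, chr1:212565157-212565406, plus strand: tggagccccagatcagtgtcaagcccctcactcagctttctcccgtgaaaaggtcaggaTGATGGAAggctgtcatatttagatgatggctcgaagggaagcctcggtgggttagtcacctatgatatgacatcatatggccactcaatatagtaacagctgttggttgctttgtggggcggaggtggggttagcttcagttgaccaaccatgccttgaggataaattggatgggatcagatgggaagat
PPP1R15A, chr19:48872171-48872420, plus strand: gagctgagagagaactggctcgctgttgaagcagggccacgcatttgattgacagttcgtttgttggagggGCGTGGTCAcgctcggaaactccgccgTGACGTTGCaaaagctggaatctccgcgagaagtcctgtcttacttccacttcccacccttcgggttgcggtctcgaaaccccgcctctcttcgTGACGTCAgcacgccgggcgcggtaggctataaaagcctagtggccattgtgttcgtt
The antioxidant core also lay before a start of CEBPB and of VLDLR. None of the 16 windows held the C/EBP palindrome TTGCGCAA (0.131% of all windows) or the ER stress response element (0.0740%). A match describes letters only, and its absence says nothing about a factor.

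In the count table's own build, GRCh37, the transcription factor genes are ATF4 on chromosome 22 at 39915700 to 39918691, ATF3 on chromosome 1 at 212738676 to 212794119 and CEBPB on chromosome 20 at 48807376 to 48809212. The feedback genes are TRIB3 on chromosome 20 at 361261 to 378203 and PPP1R15A on chromosome 19 at 49375649 to 49379318, and the mTORC1 regulators are DDIT4 on chromosome 10 at 74033678 to 74035794 and SESN2 on chromosome 1 at 28586038 to 28609002. The glutathione enzyme is CHAC1 on chromosome 15 at 41245160 to 41248710 and the receptor VLDLR on chromosome 9 at 2621834 to 2654480. Of the 10 genes only DDIT3 and VLDLR overlap other genes of the table. Counts of the 10 genes ran from 39 reads, for CHAC1 in its lowest library, to 13169 for PPP1R15A in its highest.

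The libraries held 18774905 to 24827396 counted reads. Levels below are CPM (counts relative to library size, scaled by TMM), and they are compared between libraries, not between genes, because CPM ignores gene length. The GFP_tracer and GFP_tracer_Dam libraries of index set 1 stood apart from the other 10, at -78.2 and -87.0 on the first principal component against -16.19 to 40.998. Fibroblast markers summed to 7808 and 8852 CPM in those 2 libraries and to between 8406 and 12542 CPM in the other 10. Epithelial markers summed to 20.1 and 24.3 CPM against 7.70 to 12.3, blood cell markers to 19.5 and 23.1 against 11.9 to 29.5, and neural markers to 20.4 and 21.2 against 17.6 to 23.9. In the epithelial sum 1 gene, the splicing regulator ESRP1, held 6.76 and 10.7 CPM in the 2 libraries. It held 0.0889 to 0.377 in the other 10. ESRP1 was only part of the 2 higher sums, and the parts of the other epithelial markers are not reported here. Of the 14 epithelial markers listed, 11 were under 1 CPM in all 12 libraries, the defining markers EPCAM and CDH1 among them. No marker on the 4 lists was at 0 in all libraries, and their part in the results was not tested. In bulk RNA, fewer cells expressing a gene and less RNA per cell cannot be told apart.

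Among the 4 transcription factors, ATF4 itself had the smallest ratio between GFP_tracer and GFP_uninduced in index set 1, at 2.30 (95% counting interval 2.20 to 2.41). In index set 1 ATF4 stood at 122 CPM in GFP_uninduced, 280.3 in GFP_tracer and 263 in GFP_tracer_Dam, and in index set 2 at 195, 179 and 179. In the VP16 clone it stood at 138, 129.6 and 117 CPM in uninduced, tracer and tracer_Dam cells of index set 1, and at 204, 213 and 191 in index set 2. Both induced GFP libraries of index set 1 were above all others, while the other libraries of index set 1 were below every library of index set 2.

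ATF3, a factor of the same family that is induced by many stresses, was at 15.4 CPM in GFP_uninduced of index set 1, 192 in GFP_tracer and 152 in GFP_tracer_Dam. Its 3 GFP libraries of index set 2 held 9.67, 8.58 and 10.5 CPM in the same order. The VP16 libraries held 12.4, 14.0 and 18.7 CPM in index set 1 and 7.33, 9.02 and 8.72 in index set 2. The 2 high libraries thus lay far above the remaining 10, which ran from 7.33 to 18.7 CPM.

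DDIT3 encodes CHOP, which pairs with C/EBP proteins and is tied to death under prolonged ER stress. In index set 1 it went from 6.78 CPM in GFP_uninduced to 93.5 in GFP_tracer and 77.3 in GFP_tracer_Dam, and index set 2 held 5.37, 4.73 and 5.35. The VP16 libraries held 7.76, 8.11 and 6.89 CPM in index set 1 and 5.97, 6.40 and 5.44 in index set 2. DDIT3 lies on chromosome 12 at 57910371 to 57914300 of GRCh37 and shares 982 bases with MARS, a tRNA synthetase gene, whose own levels were 252, 359 and 386 CPM in the 3 GFP libraries of index set 1. Whether counting used strand is not given in the sources used here, so the DDIT3 values carry that uncertainty.

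CEBPB, a C/EBP factor of stress and inflammation, had 42.0, 138 and 164 CPM in the GFP_uninduced, GFP_tracer and GFP_tracer_Dam libraries of index set 1. In index set 2 the same groups had 37.5, 32.3 and 33.9 CPM. The VP16 libraries had 53.9, 51.2 and 68.8 CPM in index set 1 and 57.7, 58.3 and 58.0 in index set 2. All 6 VP16 libraries exceeded the 4 GFP libraries that were not raised.

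TRIB3 and PPP1R15A feed back on the pathway. TRIB3, a pseudokinase that binds ATF4 and CHOP and dampens them, went from 51.2 CPM in GFP_uninduced of index set 1 to 346 in GFP_tracer and 319.7 in GFP_tracer_Dam. Index set 2 held 62.9, 56.6 and 55.2 CPM, and the VP16 libraries held 44.9, 50.8 and 48.7 in index set 1 and 61.9, 62.4 and 58.2 in index set 2. PPP1R15A encodes GADD34, a regulatory subunit of the phosphatase that removes the phosphate from eIF2. It had 92.8, 486 and 535 CPM in the GFP groups of index set 1, and 47.4, 49.5 and 46.2 in index set 2. Its VP16 libraries had 89.8, 75.0 and 82.8 CPM in index set 1 and 63.9, 59.4 and 56.1 in index set 2, so every library of index set 1 lay above every library of index set 2.

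DDIT4 and SESN2 restrain the growth kinase complex mTORC1, the first through the TSC complex and the second as a leucine sensor. DDIT4 had 12.5, 159 and 134 CPM in the GFP groups of index set 1 and 22.6, 15.6 and 15.7 in index set 2. The VP16 libraries had 12.9, 20.2 and 19.3 CPM in index set 1 and 13.1, 15.6 and 17.0 in index set 2, lowest in uninduced cells in both sets. SESN2 had 51.2, 254 and 188 CPM in the GFP groups of index set 1 and 44.1, 39.9 and 38.6 in index set 2. Its VP16 libraries kept to 45.2, 48.2 and 51.3 CPM in index set 1 and 42.1, 46.0 and 38.5 in index set 2.

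CHAC1, an enzyme that breaks down glutathione, had the largest ratio of the 10 between GFP_tracer and GFP_uninduced in index set 1. Between the GFP_tracer libraries of index set 1 and index set 2, ATF3 (22.4) and DDIT3 (19.8) had larger ratios than CHAC1 (17.5). For CHAC1 the GFP groups of index set 1 had 2.31, 81.0 and 75.9 CPM, and those of index set 2 had 6.96, 4.64 and 4.72. The VP16 libraries had 2.12, 3.21 and 2.60 CPM in index set 1 and 7.42, 9.07 and 7.17 in index set 2. VLDLR, a lipoprotein receptor and a target of ATF4 under ER stress, had 19.5, 33.5 and 39.1 CPM in the GFP groups of index set 1 and 29.2, 27.2 and 27.1 in index set 2. With 24.1, 31.2 and 33.4 CPM in the VP16 libraries of index set 1 and 35.3, 44.5 and 39.0 in index set 2, VLDLR was highest in VP16_tracer of index set 2. VLDLR shares 540 bases with RP11-125B21.2, which had 488 counts over the 12 libraries against 8621 for VLDLR.

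**Figure D1:**
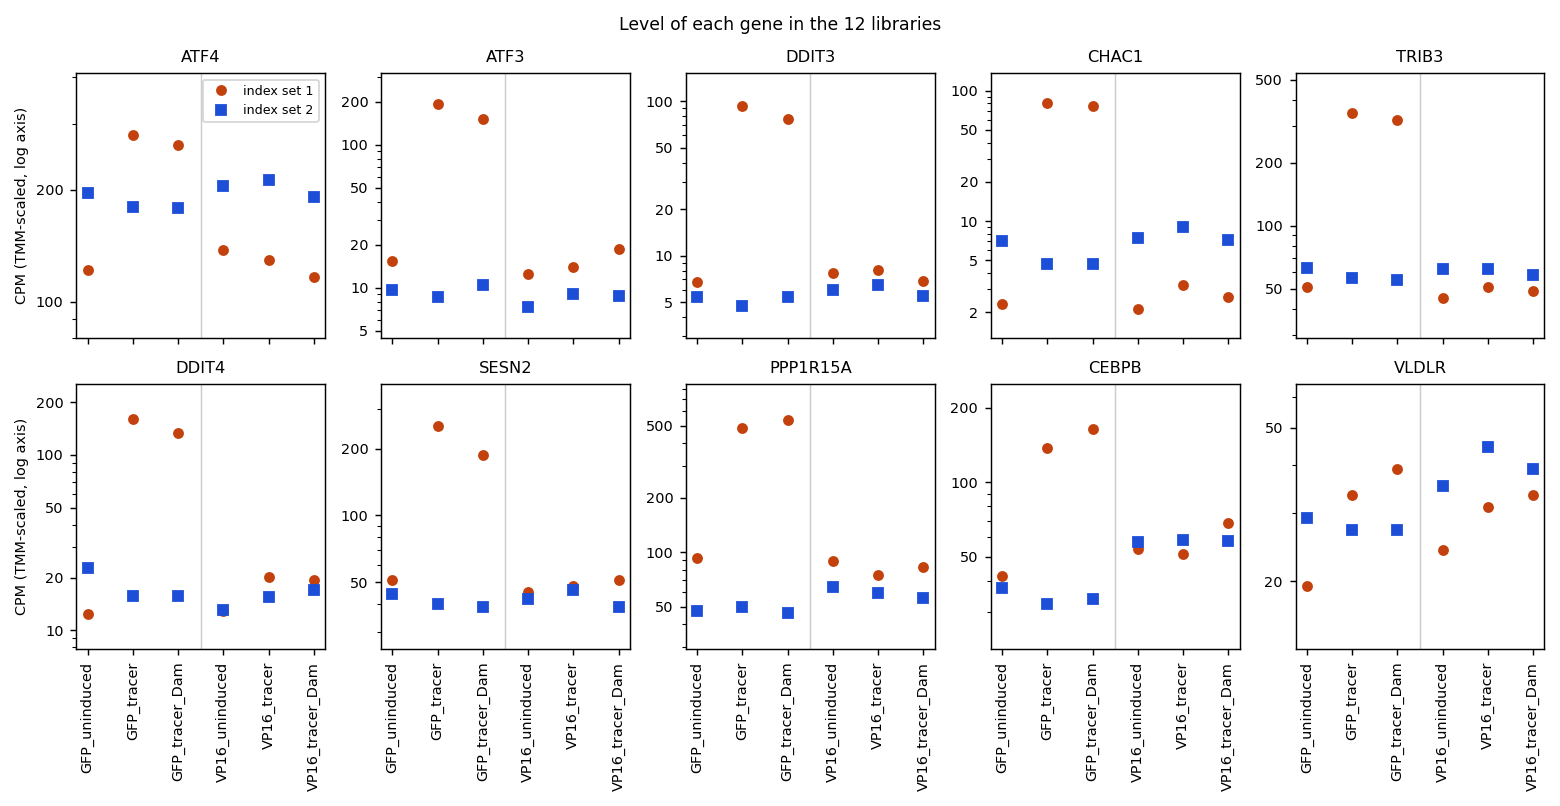
Level of each gene in each of the 12 libraries, in TMM-scaled CPM on a log axis, by group (x axis) and index set (circles for set 1, squares for set 2). The GFP_tracer and GFP_tracer_Dam libraries of index set 1 lie above the other 10 for every gene except VLDLR, and for ATF4 and CHAC1 the remaining circles lie below the squares.

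For 9 of the 10 genes both induced GFP libraries of index set 1 lay above all other 10 libraries, as they did for 22.3% of the 17262 genes tested. The members were chosen on this contrast, so nothing is read from the count. The lower of the 2 libraries exceeded the highest of the other 10 by 9.53 times for DDIT3, 8.37 for CHAC1, 8.09 for ATF3, 5.91 for DDIT4, 5.24 for PPP1R15A, 5.09 for TRIB3, 3.66 for SESN2, 2.01 for CEBPB and 1.24 for ATF4. For VLDLR this ratio was 0.752.

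Within index set 1, GFP_tracer against GFP_uninduced gave ratios from 1.72 (95% interval 1.52 to 1.94) for VLDLR to 35.1 (26.7 to 47.3) for CHAC1. The intervals are exact binomial ones and cover counting error only. DDIT3 was 13.8 times higher (11.7 to 16.4), DDIT4 12.8 (11.3 to 14.5) and ATF3 12.5 (11.2 to 14.0). Only 7 of 17262 genes had a larger log2 rise than CHAC1, 25 a larger one than DDIT3 and 761 a larger one than ATF4. The log2 change exceeded 1 for 9 of the 10 genes, against 6.48% of all genes tested, and the median was 2.57. The members were chosen on this contrast, so nothing is read from these ranks and counts.

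Index set 2 did not show these differences. None of the 10 genes had a log2 change above 1 there, against 0.817% of all genes, and the median was -0.16. CHAC1 had a ratio of 0.666 (0.516 to 0.856) and DDIT4 one of 0.690 (0.602 to 0.791), both below 1, while PPP1R15A was at 1.05 (0.962 to 1.14). With both libraries of each group, edgeR's quasi-likelihood test called 0 of 17262 genes (0%) in this contrast, with 125 at an unadjusted p under 0.05. DESeq2 and limma-voom called 0 as well.

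The 2 high libraries were close to each other with and without Shield1. In index set 1, GFP_tracer_Dam against GFP_tracer gave ratios from 0.741 (0.712 to 0.771) for SESN2 to 1.19 (1.13 to 1.25) for CEBPB, and in index set 2 from 0.932 (0.856 to 1.01) for PPP1R15A to 1.22 (1.01 to 1.49) for ATF3. No member had a log2 change above 1 in either set, against 1.55% and 0.898% of genes. CEBPB, PPP1R15A and VLDLR were higher with Dam-LaminB1 in index set 1 and the other 7 genes lower. With the GFP_uninduced libraries as the base, which both contrasts share, GFP_tracer_Dam of index set 1 was 2.16 times higher for ATF4 (2.07 to 2.26) and 32.9 times for CHAC1 (25.0 to 44.2). In that contrast 10 of 10 members passed a log2 change of 1 in index set 1 (8.51% of all genes) and 0 in index set 2 (0.672%). Induced GFP cells were used to choose the members, so nothing is read from the 10 of 10. edgeR called 0 of 17262 genes (0%) for GFP_tracer_Dam against GFP_tracer, with 80 at an unadjusted p under 0.05, and 0 (0%) against GFP_uninduced, with 228. DESeq2 and limma-voom called 0 in both.

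**Figure D2:**
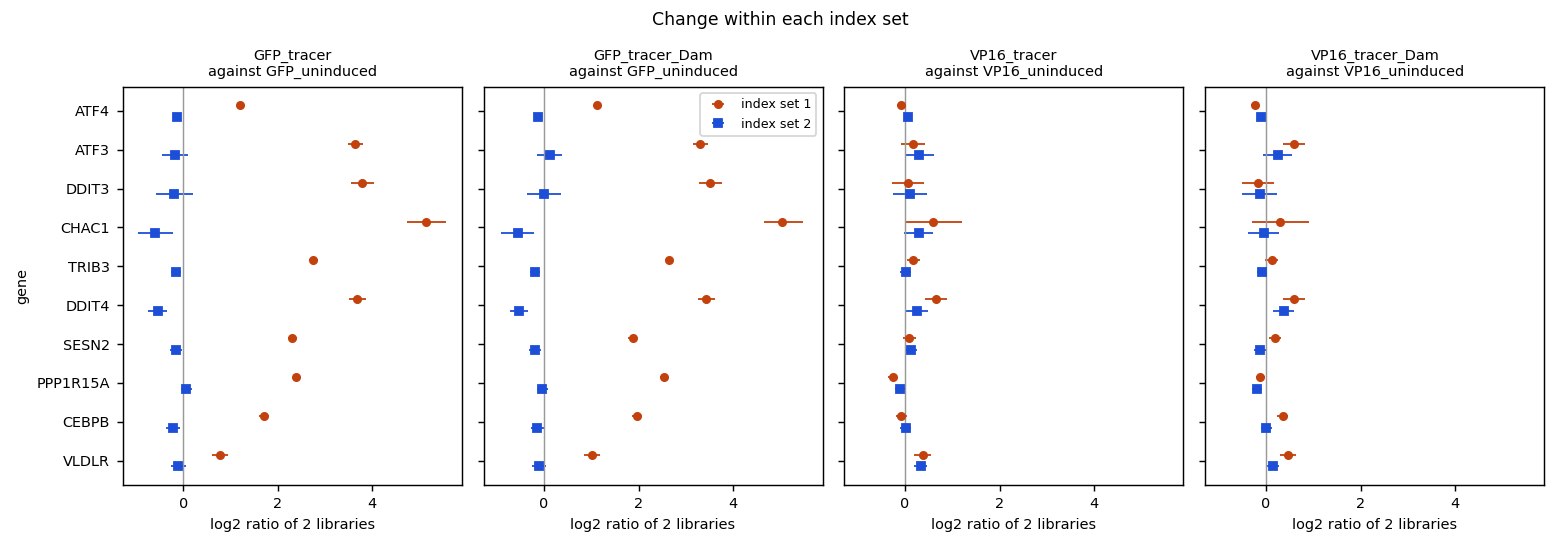
Log2 ratio of 2 libraries of the same index set for each gene (y axis), in 4 contrasts, with bars for the exact binomial 95% counting interval. The 10 circles of index set 1 lie right of 0 in both GFP panels, up to 35.1-fold for CHAC1. The squares of index set 2 and both sets in the VP16 panels lie between -0.59 and 0.65. Some of their intervals exclude 0, as for DDIT4 in VP16_tracer.

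The rest of the pathway was described with 7 lists of genes in the same contrast, GFP_tracer against GFP_uninduced, where 6.48% of all genes in index set 1 had a log2 change above 1. These libraries chose the members, so the counts are a description and no list was tested against another. Some genes are shared between lists and are counted in each. Of 22 genes for the stress-sensing kinases and the eIF2 machinery, 0 had a log2 change above 1 in index set 1, with a median of -0.09 against 0.02 over all genes. GCN1L1, a partner of the amino acid sensor kinase, was at 508 CPM uninduced and 519.8 with tracer, and EIF2S1, the subunit that is phosphorylated, at 224 and 212. Of 37 other targets of ATF4 and CHOP, 17 had a log2 change above 1 and the median was 0.76. The hormone GDF15 went from 280.2 to 1246 CPM and VEGFA, a vessel growth factor, from 115 to 516.

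Of 34 genes of amino acid synthesis, transport and tRNA charging, 23 had a log2 change above 1, with a median of 1.24. SLC7A5, the light chain of a leucine transporter, went from 242 to 849.5 CPM. Of 31 leucine zipper factors that can pair with ATF4 or CHOP, 8 passed, among them JUN (164 to 413 CPM), and the median was 0.45. Further lists cover the other arms of the unfolded protein response and the growth kinase pathway. Of 27 targets of IRE1 and ATF6, 3 passed and the median was -0.03. The chaperone HSPA5 was at 939 and 1264 CPM, and CALR at 1608 and 1326. Of 28 genes of the mTORC1 pathway beside DDIT4 and SESN2, 0 passed and the median was 0.02. In index set 2 no gene of these lists had a log2 change above 1.

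**Figure D3:**
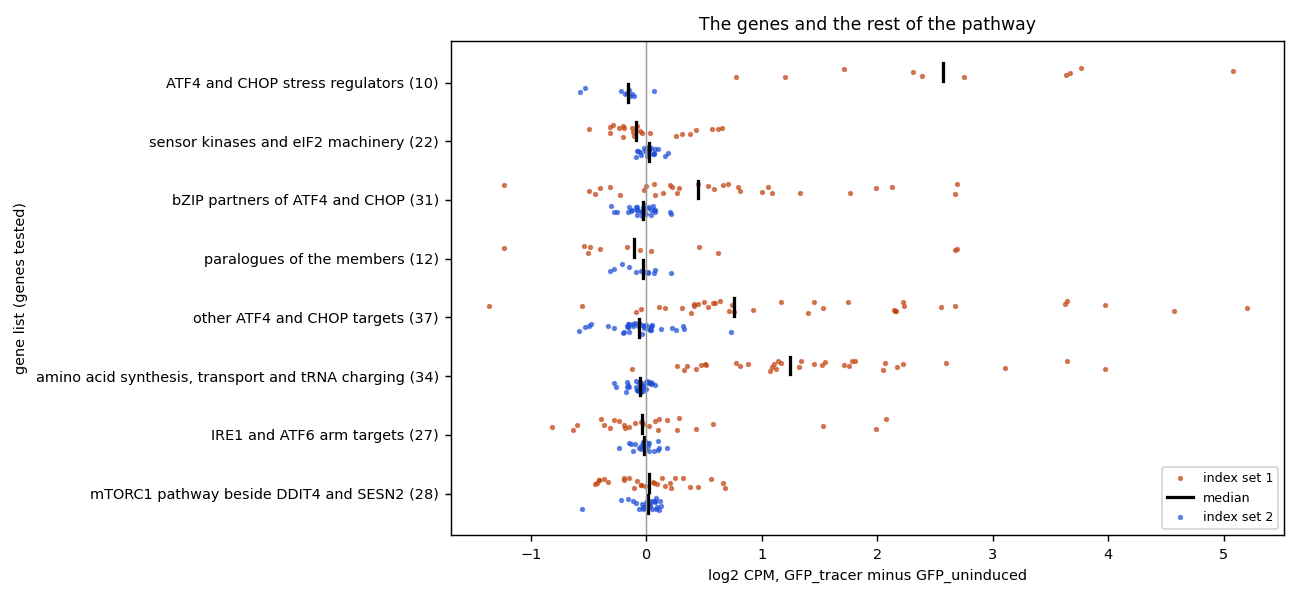
Log2 CPM of GFP_tracer minus GFP_uninduced for each gene tested of 8 lists (rows), in index set 1 (upper dots) and index set 2 (lower dots), with a bar at each median. In index set 1 the medians are 2.57 for the 10 genes, 1.24 for amino acid genes and 0.76 for other targets, and between -0.11 and 0.45 for the other 5 lists; in index set 2 the dots gather near 0.

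Close relatives of the 10 genes did not all follow them in the GFP clone of index set 1, where each group has 1 library. Levels of the relatives in the other libraries are not listed here, and their changes with the tracer were not tested. CEBPG, a C/EBP partner of ATF4, had 31.5, 204 and 204 CPM in the GFP_uninduced, GFP_tracer and GFP_tracer_Dam libraries of index set 1, and JDP2, the nearest relative of ATF3, had 6.03, 38.9 and 32.7. PPP1R15B, the constitutive counterpart of PPP1R15A, had 89.6, 138 and 136 CPM. ATF5, the relative of ATF4 that is also under eIF2 control, went the other way with 58.2, 24.7 and 14.96 CPM. LRP8, a relative of VLDLR that also binds reelin, had 72.1, 50.9 and 45.5 CPM. CHAC2 stayed at 16.3, 16.8 and 13.4 CPM and CEBPD at 8.87, 6.71 and 6.71. TRIB1 had 31.7, 43.5 and 53.7 CPM, TRIB2 24.2, 23.3 and 32.6, SESN1 35.2, 25.1 and 30.6, and SESN3 6.34, 5.64 and 4.39. CEBPA and CEBPE did not pass the filter on low counts.

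Differences between the index sets were tested without the 2 libraries that set the members apart. The GFP_uninduced libraries, the base of the contrast known when the members were chosen, were kept. That choice may therefore bear on these values, and the VP16 groups alone are given below. The 8 libraries of GFP_uninduced and the 3 VP16 groups were fitted with edgeR's quasi-likelihood model, with group and index set as terms. This asks whether the stress genes differ between the sets in libraries other than those 2 and their index set 2 partners. The call was an adjusted p under 0.05, by Benjamini-Hochberg over all 16553 genes tested. It was met by 8 of the 10 genes and by 40.9% of all genes, so the sets differ in a large part of the transcriptome. Of the 10 genes, 8 differed in the same direction in 4 of 4 groups, against 53.3% of all genes, called or not. These are the 8 genes called, and the call used the same libraries, so the shared direction adds no support. DESeq2 called 7 of the 10 (27.5% of all genes) and limma-voom 8 (40.7%).

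The 10 genes did not move together between the sets. Higher in index set 1 were 4 of the 10 (20.7% of all genes were). ATF3 was higher by 0.80 ± 0.09 on the log2 scale (SE, adjusted p = 1.4e-05), PPP1R15A by 0.59 ± 0.10 (adjusted p = 0.0054), DDIT3 by 0.35 ± 0.09 (adjusted p = 0.0071) and SESN2 by 0.20 ± 0.06 (adjusted p = 0.013). Lower were 4 of the 10 (20.2% of all genes were). CHAC1 had a log2 difference of -1.57 ± 0.11 (adjusted p = 3.7e-07), ATF4 of -0.66 ± 0.04 (adjusted p = 5.9e-08), VLDLR of -0.46 ± 0.06 (adjusted p = 9.9e-05) and TRIB3 of -0.32 ± 0.05 (adjusted p = 0.00014). CEBPB, with 0.04 ± 0.07 (adjusted p = 0.72), and DDIT4, with -0.08 ± 0.24 (adjusted p = 0.82), did not pass and had 2 groups on each side of 0.

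For DDIT4 the groups lay on both sides of 0. It had a difference of -0.86 in GFP_uninduced, -0.03 in VP16_uninduced, 0.37 in VP16_tracer and 0.18 in VP16_tracer_Dam. Over the 3 VP16 groups alone it was higher by 0.20 ± 0.08 (adjusted p = 0.046), and it was higher by 0.19 without either GFP_uninduced library (adjusted p = 0.052 without that of index set 1 and 0.047 without that of index set 2). Its adjusted p ranged from 0.046 to 0.90 over 16 alternatives. In the VP16 groups alone, whose libraries did not enter the choice of genes, 9 of the 10 genes were called, against 43.5% of 16139 genes. There CHAC1 differed by -1.56 ± 0.13 and ATF4 by -0.66 ± 0.04.

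The calls of SESN2 and PPP1R15A ended without either VP16_tracer_Dam library. SESN2 then had an adjusted p of 0.078 or 0.079 and PPP1R15A of 0.062 or 0.066. DDIT3 missed the threshold with DESeq2 (adjusted p = 0.089). Over all 16 alternatives the adjusted p ran from 0.0028 to 0.12 for SESN2, from 1.2e-20 to 0.066 for PPP1R15A and from 0.0066 to 0.12 for DDIT3.

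**Figure D4:**
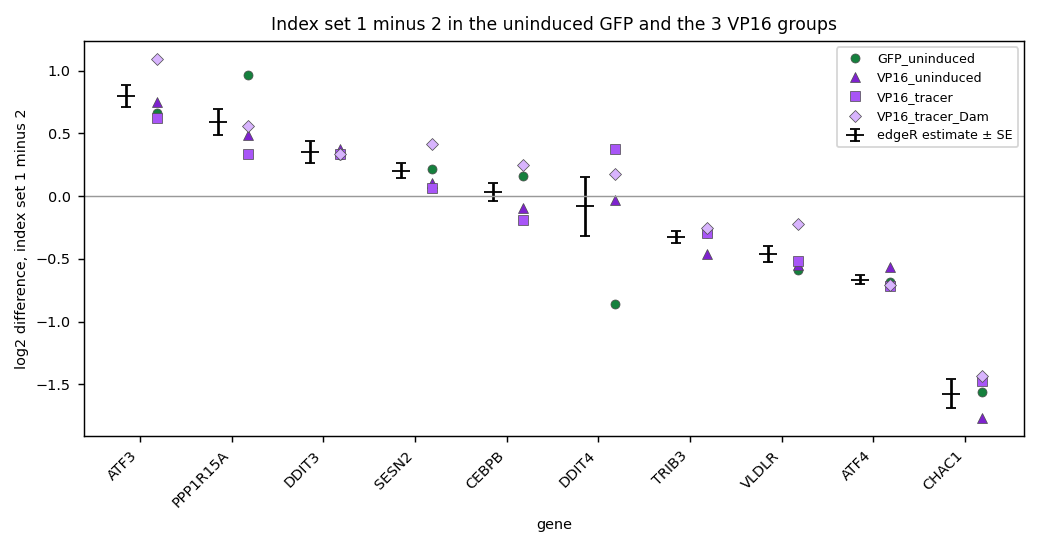
Log2 CPM of index set 1 minus index set 2 for each gene (x axis) in GFP_uninduced and the 3 VP16 groups (symbols), beside edgeR's estimate with its SE over the 8 libraries. ATF3, PPP1R15A, DDIT3 and SESN2 lie above 0 in all 4 groups, and TRIB3, VLDLR, ATF4 and CHAC1 below.

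The pathway lists were counted in the same contrast of index sets, in which 20.7% of all genes were higher and 20.2% lower. Of the 34 genes of amino acid supply and tRNA charging, 28 were lower in index set 1 and 0 higher, with a median of -0.47 against 0.01 over all genes. PHGDH, the first enzyme of serine synthesis, differed by -0.58 ± 0.05 (adjusted p = 2.3e-06), and SLC7A11, the cystine transporter, by -1.82 ± 0.13 (adjusted p = 0.00013). CEBPG was lower by a log2 difference of -0.61 ± 0.05 (adjusted p = 6.0e-07). Of 36 other targets, 13 were higher and 9 lower. SLC7A11, CTH and CBS, all lower, are counted both here and among the genes of amino acid supply. CDKN1A, the cell cycle inhibitor p21, was higher by 1.46 ± 0.04 (adjusted p = 1.3e-10) and GDF15 by 1.49 ± 0.07 (adjusted p = 1.9e-06). INHBE, an activin chain, was lower with -1.37 ± 0.09 (adjusted p = 1.3e-07).

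The remaining lists are read against the same shares of all genes, 20.7% higher and 20.2% lower. Among 22 genes of the kinases and the eIF2 machinery, 0 were higher and 5 lower. Of the 31 leucine zipper partners, 10 were higher and 10 lower, and of 12 relatives of the members 2 were higher and 3 lower. Targets of IRE1 and ATF6 gave 7 higher and 8 lower of 27, and the mTORC1 genes 9 higher and 5 lower of 28.

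Correlations between the 10 genes depended on the 2 high libraries. Over 12 libraries the 45 pairs had a median Pearson r of log2 CPM of 0.87 (0.19 to 0.99). Over the other 10 libraries the median was 0.02 and 22 pairs were negative. There CHAC1 and TRIB3 had r = 0.95, ATF4 and CHAC1 0.94, ATF4 and TRIB3 0.88, and DDIT3 and PPP1R15A 0.85. ATF4 and ATF3 had r = -0.94 and ATF3 and CHAC1 -0.84. These values describe 12 or 10 libraries that share clones and index sets, and those sets differ as tested above.

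The genes most like each member over the 12 libraries were sought among 13728 genes with a mean of at least 1 CPM. For CHAC1 they were INHBE, AARS and CEBPG, each with r = 0.99 over 12 libraries and 0.97, 0.98 and 0.97 over 10. For ATF4 they were CSNK1G3, LARS and PHGDH, each with r = 0.98 over 12 libraries and 0.97, 0.98 and 0.98 over 10. PPP1R15A was most like MAP1LC3B (r = 0.997 over 12 libraries, 0.98 over 10), a protein of autophagosomes, followed by UFM1 and MED10. CEBPB was most like NAMPT (0.99 and 0.97), followed by LIF and DMWD, and VLDLR was most like GCC2 (0.95 and 0.95), followed by STX7 and EPS15.

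For other members the likeness weakened without the 2 high libraries. TRIB3 had PTPDC1, FUT1 and GOT1, each with r = 0.99 over 12 libraries and 0.81, 0.58 and 0.62 over 10. DDIT4 had TSC22D3 (0.99 and 0.75), PAPLN and RGS3, SESN2 had GADD45A (0.99 and 0.74), MAFF and ZNF780B, and ATF3 had IFNGR1 (0.99 and 0.85), IRF1 and CSRNP1. DDIT3 had GADD45A (0.996 and 0.87), ZNFX1-AS1 and MAFF.

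In the VP16 clone none of the 10 genes passed in any contrast of the fit over 12 libraries, which has no term for index set. VP16_tracer against VP16_uninduced asks whether tracer induction alters the genes in the other clone, and gave log2 changes from -0.19 ± 1.11 for PPP1R15A to 0.46 ± 1.06 for DDIT4 (SE). VP16_tracer_Dam against VP16_tracer gave from -0.33 ± 1.48 for CHAC1 to 0.26 ± 1.34 for ATF3, and VP16_tracer_Dam against VP16_uninduced from -0.15 ± 0.39 for ATF4 to 0.48 ± 1.06 for DDIT4. edgeR called 0 of 17262 genes (0%) in each of the 3 contrasts, with 72, 53 and 189 genes at an unadjusted p under 0.05 and none of the 10 among them. DESeq2 and limma-voom called 0 genes too. The median SE of the 10 genes was 0.96 against 0.29 over all genes tested, in a fit that shares its estimate of spread with the 2 high GFP libraries. With an SE of that size the fit could miss changes of the size seen here, so the lack of calls does not show that the genes were unchanged.

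Fitting the 6 VP16 libraries alone with index set as a block was added after the data had been seen, and brought the median SE of the 10 genes to 0.09, on 2 residual degrees of freedom. For VP16_tracer against VP16_uninduced it called 2 of the 10 genes, against 0.861% of 16139 genes. DDIT4 was higher by 0.46 (adjusted p = 0.027) and VLDLR by 0.35 (adjusted p = 0.036), both in 2 of 2 sets. For VP16_tracer_Dam against VP16_tracer it called 0 of the 10 (0.0806% of genes). For VP16_tracer_Dam against VP16_uninduced it called 4 of the 10, against 9.75% of genes. DDIT4 was higher by 0.48 (adjusted p = 0.0032), ATF3 by 0.47 (adjusted p = 0.012) and VLDLR by 0.30 (adjusted p = 0.019), and ATF4 differed by -0.16 (adjusted p = 0.028), each with the same direction in 2 of 2 sets. All other alternatives left these genes uncalled, with adjusted p up to 1.

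In counting terms, DDIT4 in VP16_tracer was 1.57 times VP16_uninduced (1.34 to 1.85) in index set 1 and 1.19 times (1.02 to 1.395) in index set 2. VLDLR was 1.29 times (1.15 to 1.46) and 1.26 times (1.15 to 1.38). In the GFP clone of index set 2 DDIT4 was lower with the tracer, at 0.690 times, and VLDLR was at 0.931 times (0.834 to 1.04).

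Between the uninduced clones, edgeR called 48 genes (0.278%) and 0 of the 10, with none of them at an unadjusted p under 0.05. DESeq2 called 288 genes and limma-voom 33, again with 0 of the 10. CEBPB had the largest difference, higher in VP16_uninduced by 0.49 ± 0.73 (adjusted p = 1). Its ratio was 1.28 (1.17 to 1.41) in index set 1 and 1.54 (1.41 to 1.67) in index set 2. Without the 2 high GFP libraries and with index set as a block, a fit added after the data had been seen, CEBPB was higher by 0.48 ± 0.10 (adjusted p = 0.0056), where 21.0% of 17558 genes were called. Over its 14 alternatives the adjusted p ran from 0.0056 to 1.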

How the data were processed

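Each library is 1 of 12 HT1080 samples. The authors deposited 1 table of raw read counts, whole numbers without normalization, for 36502 Ensembl genes (59 without annotation). Trizol total RNA went into TruSeq RNA libraries, per the labels' protocols. TopHat 1.4.0, Bowtie 0.12.7, HTSeq and GRCh37 are named in the submitters' processing notes. HTSeq's version, strand use and treatment of overlapping genes were not given in the sources used here.

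Genes were filtered by edgeR's filterByExpr (17262 kept), scaled by TMM and fitted with edgeR 4.0.16's quasi-likelihood model in R 4.3.3, 1 coefficient per group over 12 libraries (6 residual degrees of freedom). Adjustment was by Benjamini-Hochberg, with a threshold of 0.05. An SE is the log2 change divided by the root of its F. Log2 CPM used a prior count of 2. Index sets were compared in 8 libraries with group and set as terms (16553 genes). Ratios of 2 libraries carry exact binomial 95% intervals, which cover counting error only.

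The members and lists were chosen with earlier results of these data known. Named are all members, their relatives, the 4 most abundant genes of a list, up to 10 list genes past the threshold and the 3 most correlated genes, in part or whole; the values of 1 relative are not reported here. Replicates were not duplicates (chi-square per degree of freedom 19.6 to 126). Deviations from group means correlated within an index set in 15 of 15 pairs of groups (0.41 to 0.86), so the sets pair the libraries. No title names a set, and the sets were read from the library numbers and index sequences in the titles. Alternatives were RLE or no scaling, other count filters, DESeq2 1.42.0, limma-voom (limma 3.58.1), the block, only the groups compared, and leaving out each library. The model was also run on simulated counts, and the outcome is not reported here. Promoter letters are RefSeq's.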

Additional observations from a re-analysis of the deposited data

Results flagged for a closer look

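PPP1R15A is listed because both log2 changes with the tracer lay above 0 in the GFP clone and both below 0 in the VP16 clone. GFP_tracer exceeded GFP_uninduced by a log2 change of 2.39 in index set 1, and by 0.07 in the other set. That of VP16_tracer against VP16_uninduced was -0.26 and -0.10. The counting intervals of the ratios in index set 2 include 1 in both clones (0.962 to 1.14 for GFP, 0.862 to 1.003 for VP16). Those in index set 1 exclude 1 in both clones (5.00 to 5.49 for GFP, 0.779 to 0.895 for VP16). The mean of the GFP clone exceeded that of the VP16 clone by 1.41, most of it from 1 library that was used to choose the gene. The difference was not tested and no difference between the clones is read from it.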

How the results depend on the processing

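Of 1161 values recomputed under alternatives, 1077 were counted as kept. For the change of a single member this meant the same side of the threshold, and the same sign only where a fit called it. For counts, medians and correlations it meant a similar size. Among 750 values of single members in tested contrasts, 66 changed sign with nothing called, and these 66 are counted among the 1077. The index-set calls rest on the 8 libraries without the induced GFP groups: over all 6 groups, 0 of the 10 members were called, and CHAC1 (0.18) and TRIB3 (0.58) changed sign. DDIT4 changed sign to 0.20 in the VP16 groups alone. Leaving out 1 library moved it between -0.25 and 0.19. With the replicate block over 12 libraries, 327 genes differed between the uninduced clones, and the block changed no other call of this fit. Without a count filter that count was 220, with at least 10 counts in every library 14, with DESeq2 288, with only the groups compared 1, and without each library in turn 1 to 5.

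Fits chosen after seeing the data gave more calls. Without the 2 high GFP libraries 129 genes differed between the uninduced clones. With the replicate block added to those 10 libraries there were 3685 genes and 1 member for the clones, 1 gene each for VP16_tracer and GFP_tracer against uninduced and for VP16_tracer_Dam and GFP_tracer_Dam against tracer, and 56 for VP16_tracer_Dam against VP16_uninduced. In the 6 VP16 libraries with the replicate block the counts were 139 genes and 2 members for tracer, 13 genes and 0 members for tracer_Dam against tracer, and 1573 genes and 4 members for tracer_Dam against uninduced. Leaving out 1 library gave 0 to 1 genes for GFP_tracer against GFP_uninduced and for GFP_tracer_Dam against GFP_tracer, the 1 without the GFP_tracer library of index set 1. Of 60 likeness values 46 stayed within 0.1 of r. The 2 libraries of a group differed by more than counting error, but they also differ in index set, so depth and set were not separated. With the set as a block, the SE of the 10 genes in the VP16 libraries was at most 0.16. Depth limits CHAC1 most, with 39 reads in its lowest library.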
